A study of Saccharomyces cerevisiae with 12 samples.

Results

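The 8 genes described here, THI2, THI3, THI4, THI6, THI7, THI20, THI80 and PHO3, serve the synthesis, uptake and activation of thiamine (vitamin B1) in budding yeast. They were chosen by name: every listed symbol that the platform annotation pairs with a probe set was taken, and all 8 had exactly 1 probe set each, out of 5448 genes tested on 5715 probe sets. The platform was the Affymetrix Yeast Genome 2.0 array. It read messenger RNA of 12 cultures from 4 strains of the W303-1A background, 3 cultures a strain. The combined mutant (strain KBY3, bmh1-170ts bmh2∆ hda1∆ rpd3∆) carries the mutations of both other mutants. The hdac mutant (strain CTY-TY44, hda1∆ rpd3∆) has lost the histone deacetylases Hda1 and Rpd3. The bmh mutant (strain YLL1087, bmh1-170ts bmh2∆) has a temperature-sensitive allele of BMH1 and no BMH2, the genes of the yeast 14-3-3 proteins. The wild type is the strain labelled W303-CH1A. YP medium with 5% glucose was used for every strain, and cells were taken in exponential growth. The only temperature was 30 °C, so the temperature-sensitive allele was read there alone. Replicates were triplicate cultures, and 3 arrays per strain limit the precision.

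Thiamine diphosphate is the cofactor of pyruvate decarboxylase, pyruvate dehydrogenase, transketolase and related enzymes, and yeast can either make thiamine or import it. Synthesis joins a thiazole ring, made by Thi4, to a pyrimidine ring, made by the Thi5 family and phosphorylated by Thi20 and Thi21. Thi6 couples the rings, and Thi80 turns thiamine into the diphosphate. Pho3 is an acid phosphatase of the cell surface that removes phosphate from thiamine phosphates before Thi7 imports the vitamin. Thi2 and Thi3, together with Pdc2, activate these genes when thiamine is scarce, and most of the set is repressed in medium with ample thiamine.

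The labels were checked first. BMH2, HDA1 and RPD3 lay between 3.68 and 4.13 on the log2 scale on the 18 array values of strains that lack them, and the lowest value of any thiamine gene was 6.21, so all 8 were read above that level on every array. The strains also differed in mating-type transcripts: averaged over the list on each array, the 7 a-cell markers lay at 9.03 to 9.06 in the combined mutant, 5.88 to 5.99 in the hdac mutant, 10.58 to 10.65 in the bmh mutant and 10.85 to 10.91 in the wild type. The 4 alpha-cell markers lay at 5.93 to 5.96 in the combined mutant, 9.999 to 10.02 in the hdac mutant, 5.57 to 5.79 in the bmh mutant and 5.53 to 5.66 in the wild type. Of these, MF(ALPHA)1 lay between 3.70 and 4.25 on the arrays of the combined mutant, the bmh mutant and the wild type. Its means in these strains, 3.81, 4.09 and 4.02, were within the 3.68 to 4.13 of the deleted genes. The 5 measured of 6 strain markers also differed, at 10.40 to 10.56 in the combined mutant, 8.44 to 8.50 in the hdac mutant, 10.92 to 11.01 in the bmh mutant and 9.16 to 9.24 in the wild type. In the combined mutant 6 of 7 a-cell markers were called lower than in the wild type (median −1.85). Of all genes 45.2% were called lower and 30.4% higher in this comparison (median −0.13). Of the 4 alpha-cell markers SAG1 was called higher there, MF(ALPHA)1 was called lower and 2 were not called (median −0.01). The lower call of MF(ALPHA)1 is a difference between means at the level of the deleted genes. SAG1 averaged 9.53 in the combined mutant, 9.90 in the hdac mutant, 8.15 in the bmh mutant and 7.97 in the wild type. The bmh mutant had 3 of 7 a-cell markers called lower than in the wild type (median −0.14), where 17.2% of all genes were called lower. Differences of the hdac and of the combined mutant from the other strains therefore cannot be told apart from these differences in mating-type transcripts, and those of any mutant cannot be told apart from marker genotype. Wild-type array 1 stood apart, with 61 genes at least 2-fold from the mean of its fellow arrays; the corresponding numbers for arrays 2 and 3 were 5 and 6. None of the 8 thiamine genes was among the 61, and their largest deviation was that of THI3, −0.35.

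In the combined mutant THI4, THI7, THI2, THI20, PHO3 and THI6 were higher than in the wild type and THI80 was lower, so that 7 of 8 thiamine genes passed the test, 6 of them upwards. Across all 5448 genes 75.7% passed in this comparison, 30.4% higher and 45.2% lower. The median difference of the 8 genes was 0.32 on the log2 scale, against −0.13 over all genes. In the hdac mutant THI7, THI4 and THI2 were higher and THI20 and THI80 lower than in the wild type, which is 5 of 8 where 71.4% of all genes passed, 29.8% higher and 41.6% lower. In the bmh mutant PHO3 and THI4 were higher and THI7 and THI20 lower, 4 of 8 where 32.0% of all genes passed, 14.8% higher and 17.2% lower. The medians of the 8 genes were 0.07 in the hdac and 0.11 in the bmh comparison, against −0.09 and −0.01 over all genes. A gene passed at an adjusted p under 0.05 in limma's moderated test with Benjamini-Hochberg adjustment over all genes. Without wild-type array 3 the bmh count was 7, with THI3 and THI80 higher and THI2 lower in addition, where 30.4% of all genes passed. In bulk RNA, fewer cells that express a gene and less RNA per cell cannot be told apart.

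**Figure D1:**
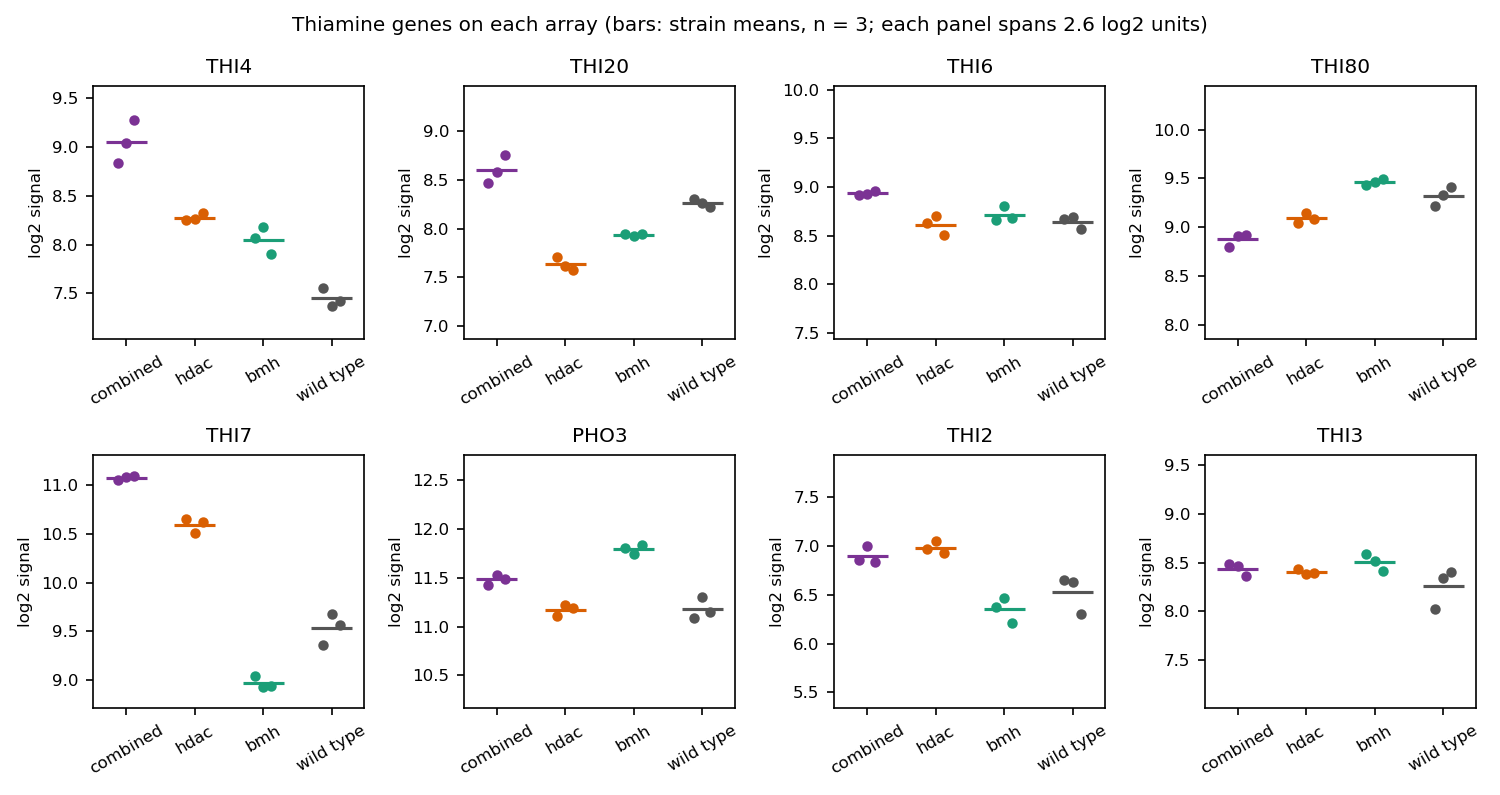
Log2 signal of the 8 thiamine genes (vertical axis, arbitrary log2 units, each panel 2.6 units high) on every array, with strains along the horizontal axis; points are the 3 arrays of a strain and bars the strain means. THI7 spans 8.93 to 11.09 over the 12 arrays, whereas THI3 spans 8.02 to 8.58.

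**Figure D2:**
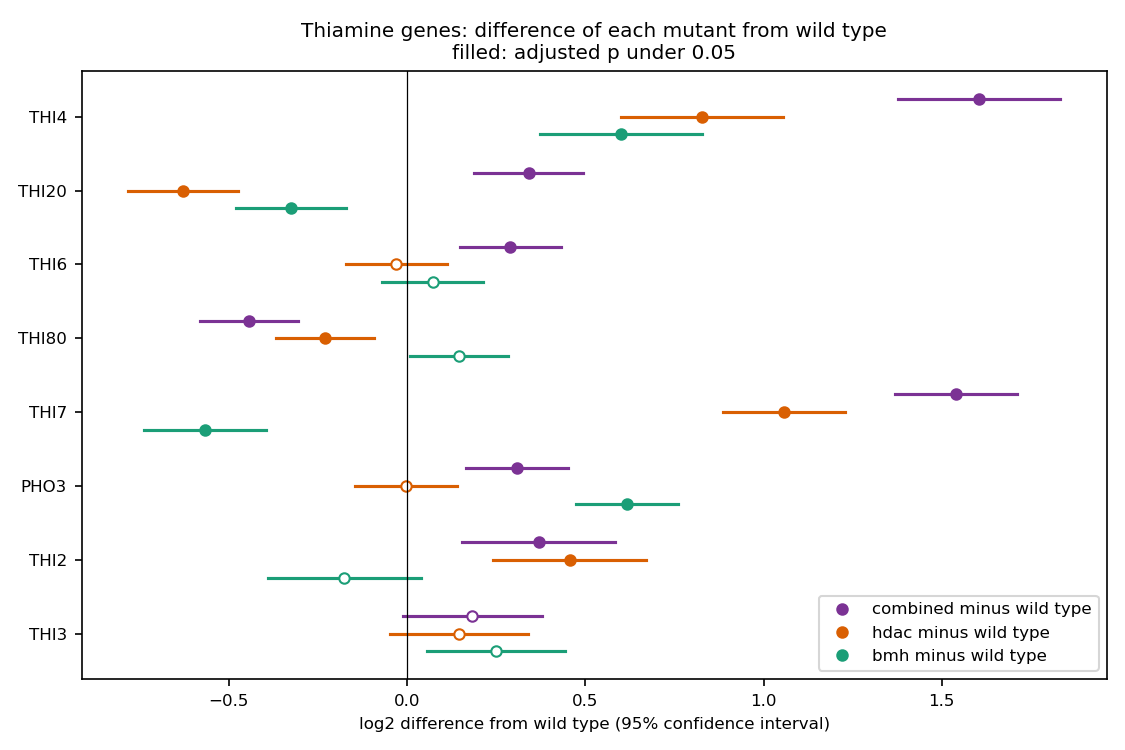
Log2 difference of each mutant from the wild type (horizontal axis) for the 8 thiamine genes, with lines for the 95% confidence interval of the limma fit and filled points for adjusted p under 0.05. THI7 and THI20 each lie on both sides of 0 in different mutants, and THI4 lies above 0 in all 3.

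THI4 (locus YGR144W, probe set 1770071_at), the thiazole synthase, had the largest difference from the wild type of the 8 genes, in the combined mutant. It measured 8.84, 9.04 and 9.28 on the combined arrays, 8.25, 8.26 and 8.32 on the hdac arrays, and 8.07, 8.18 and 7.90 on the bmh arrays. The wild-type arrays gave 7.55, 7.37 and 7.42. No 2 strains overlapped, and the order was combined, hdac, bmh, wild type from high to low. The difference from the wild type was 1.61 ± 0.10 in the combined mutant (log2 difference ± SE, n = 3 per strain; 3.04-fold, limma adjusted p = 3.6e-08), 0.83 ± 0.10 in the hdac mutant (1.77-fold, adjusted p = 1.7e-05) and 0.60 ± 0.10 in the bmh mutant (1.52-fold, adjusted p = 0.001). The combined mutant exceeded the hdac mutant by 0.78 ± 0.10 (adjusted p = 1.1e-04) and the bmh mutant by 1.01 ± 0.10 (adjusted p = 2.9e-06). The neighbouring levels of the bmh and hdac mutants did not differ past the threshold, at −0.23 with a 95% interval of −0.46 to −0.00059 (adjusted p = 0.067), although this difference passed without combined array 1 or 3, bmh array 2 or wild-type array 1, with array weights (adjusted p = 0.031) and in a fit of only the compared arrays (adjusted p = 0.018).

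THI20 (locus YOL055C, probe set 1770923_at), the kinase that phosphorylates the pyrimidine ring, moved in opposite directions in the combined and the other mutants. Its signals were 8.47, 8.58 and 8.75 on the combined arrays, 7.70, 7.62 and 7.57 on the hdac arrays, and 7.94, 7.92 and 7.94 on the bmh arrays. Wild-type values were 8.30, 8.26 and 8.22. Again no strains overlapped, and here the wild type lay below the combined mutant and above both others. Against the wild type THI20 rose by 0.34 ± 0.070 in the combined mutant (1.27-fold, limma adjusted p = 7.9e-04), whereas it fell by 0.63 ± 0.070 in the hdac mutant (adjusted p = 6.3e-06) and fell by 0.33 ± 0.070 in the bmh mutant (adjusted p = 0.0041). Relative to the hdac mutant the combined mutant was higher by 0.97 ± 0.070 (adjusted p = 6.4e-07), and relative to the bmh mutant by 0.67 ± 0.070 (adjusted p = 3.4e-06). The bmh mutant lay 0.30 ± 0.070 above the hdac mutant (adjusted p = 0.002). Each of these calls was kept without any 1 array.

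Related genes of the pyrimidine branch gave the following values. THI21, the paralog of THI20, was 0.58 ± 0.098 higher in the combined mutant than in the wild type (adjusted p = 1.6e-04), while its differences in the hdac (−0.13) and bmh (0.16) mutants did not pass. The probe set assigned to THI13 is of a kind that can read several related genes, so its value cannot be given to THI13 alone. Which genes of the near-identical Thi5 family it reads was not tested. This probe set measured 7.37, 7.57 and 7.73 on the combined arrays, 6.93, 6.69 and 6.77 on the hdac arrays, and 6.86, 6.76 and 7.08 on the bmh arrays. In the wild type the signals were 6.67, 6.68 and 6.41. Against the wild type it rose by 0.97 ± 0.11 in the combined mutant (adjusted p = 7.4e-06), and the differences of 0.21 in the hdac mutant and 0.32 in the bmh mutant did not pass (adjusted p = 0.12 and 0.052; the bmh difference passed without combined array 1, combined array 3, bmh array 2 or wild-type array 1). THI22, a relative of THI20, was lower by 0.93 ± 0.15 in the combined mutant (log2 difference −0.93, adjusted p = 1.3e-04) and by 1.0 ± 0.15 in the hdac mutant (log2 difference −1.0, adjusted p = 8.7e-05).

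THI6 (locus YPL214C, probe set 1773101_at), which couples the rings of the vitamin, measured 8.92, 8.92 and 8.96 on the combined arrays, 8.63, 8.70 and 8.51 on the hdac arrays, and 8.66, 8.80 and 8.69 on the bmh arrays. The wild-type arrays gave 8.67, 8.69 and 8.57. The combined mutant lay above the other 3 strains without overlap, and those 3 overlapped one another. The combined mutant exceeded the wild type by 0.29 ± 0.065 (1.22-fold, adjusted p = 0.0014), the hdac mutant by 0.32 ± 0.065 (adjusted p = 0.0023) and the bmh mutant by 0.22 ± 0.065 (adjusted p = 0.0088). For the hdac mutant against the wild type the difference was −0.03 with a 95% interval of −0.17 to 0.11, and for the bmh mutant 0.07 with an interval of −0.07 to 0.21.

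THI80 (locus YOR143C, probe set 1777034_at), the pyrophosphokinase that makes the diphosphate, was the only thiamine gene of the 8 to fall in the combined mutant. Its values were 8.80, 8.91 and 8.92 on the combined arrays, 9.04, 9.14 and 9.08 on the hdac arrays, and 9.44, 9.46 and 9.50 on the bmh arrays. Wild-type values were 9.21, 9.33 and 9.41. The strains did not overlap, with bmh highest and combined lowest. THI80 fell by 0.44 ± 0.063 in the combined mutant (1.36-fold lower, adjusted p = 4.0e-05) and fell by 0.23 ± 0.063 in the hdac mutant (1.17-fold lower, adjusted p = 0.006), both relative to the wild type; the bmh mutant differed from it by 0.15 ± 0.063, which did not pass (adjusted p = 0.10). The combined mutant also lay below the bmh mutant, by 0.59 ± 0.063 (log2 difference −0.59, adjusted p = 3.9e-06), and the bmh mutant 0.38 ± 0.063 above the hdac mutant (adjusted p = 1.8e-04). The smaller difference of −0.21 ± 0.063 between the combined and hdac mutants (adjusted p = 0.020) no longer passed without combined array 1, hdac array 2 or hdac array 3.

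THI7 (locus YLR237W, probe set 1770792_at), the thiamine transporter of the plasma membrane, had the widest span of strain means among the 8 genes, 2.11 on the log2 scale. It measured 11.05, 11.08 and 11.09 on the combined arrays, 10.65, 10.51 and 10.62 on the hdac arrays, and 9.04, 8.93 and 8.94 on the bmh arrays. In the wild type the signals were 9.36, 9.68 and 9.57. Both strains without the deacetylases lay above both strains that have them, and no strains overlapped. Relative to the wild type THI7 rose by 1.54 ± 0.078 in the combined mutant (2.91-fold, adjusted p = 4.2e-09) and by 1.06 ± 0.078 in the hdac mutant (2.08-fold, adjusted p = 1.7e-07), and fell by 0.57 ± 0.078 in the bmh mutant (1.48-fold lower, adjusted p = 1.8e-04). The direct comparison of the combined with the bmh mutant gave 2.11 ± 0.078 (4.31-fold, adjusted p = 3.1e-10) and that of the combined with the hdac mutant 0.48 ± 0.078 (adjusted p = 4.9e-04). The bmh mutant lay 1.62 ± 0.078 below the hdac mutant (log2 difference −1.62, adjusted p = 4.2e-09). All of these calls were kept without any 1 array.

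Other transporter genes were also measured. NRT1, a nicotinamide riboside transporter with low-affinity thiamine uptake, measured 6.22, 6.20 and 6.55 on the combined arrays, 6.46, 6.03 and 6.25 on the hdac arrays, and 7.54, 7.67 and 7.79 on the bmh arrays. The wild-type arrays gave 8.20, 8.25 and 7.99. Relative to the wild type NRT1 fell by 1.83 ± 0.12 in the combined mutant (adjusted p = 5.7e-08), by 1.90 ± 0.12 in the hdac mutant (log2 difference −1.90, adjusted p = 5.7e-08) and by 0.48 ± 0.12 in the bmh mutant (log2 difference −0.48, adjusted p = 0.011; 0.0515 without bmh array 1). THI72, another transporter of this family, differed by 0.03 in the combined mutant and −0.08 in the bmh mutant, neither of which passed. Its rise of 0.31 ± 0.12 in the hdac mutant (adjusted p = 0.032) ended without hdac array 3 or wild-type array 1, and quantile normalization of the arrays gave −0.35 for the combined mutant (adjusted p = 0.024) and 0.07 for the hdac mutant (adjusted p = 0.65).

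PHO3 (locus YBR092C, probe set 1779615_at), the acid phosphatase that releases thiamine from its phosphates, was highest in the bmh mutant. It measured 11.43, 11.53 and 11.49 on the combined arrays, 11.11, 11.22 and 11.19 on the hdac arrays, and 11.80, 11.74 and 11.84 on the bmh arrays. Wild-type values were 11.08, 11.30 and 11.14. The combined arrays lay between the bmh arrays above them and the overlapping hdac and wild-type arrays below. Compared with the wild type, PHO3 rose by 0.31 ± 0.066 in the combined mutant (1.24-fold, adjusted p = 0.001) and by 0.62 ± 0.066 in the bmh mutant (1.53-fold, adjusted p = 2.3e-05), while the hdac difference was −0.0027 with a 95% interval of −0.15 to 0.14. The combined mutant lay 0.31 ± 0.066 above the hdac mutant (adjusted p = 0.0031) and 0.31 ± 0.066 below the bmh mutant (log2 difference −0.31, adjusted p = 9.8e-04). The bmh mutant exceeded the hdac mutant by 0.62 ± 0.066 (adjusted p = 3.9e-06).

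In the RefSeq annotation of the R64 assembly PHO3 and PHO5 are neighbours; PHO5 is the acid phosphatase induced by phosphate starvation, and each had its own probe set. PHO5 measured 13.17, 13.31 and 13.28 on the combined arrays, 13.51, 13.41 and 13.48 on the hdac arrays, and 9.49, 8.86 and 9.01 on the bmh arrays. In the wild type the signals were 11.54, 11.85 and 11.57. In the bmh mutant PHO5 was lowest and PHO3 highest, with differences from the wild type of −2.53 ± 0.13 for PHO5 and 0.62 ± 0.066 for PHO3. In the hdac mutant PHO5 rose by 1.81 ± 0.13 (adjusted p = 1.7e-07), against −0.0027 for PHO3. The acid phosphatase gene PHO11, whose probe set can read several related genes, was called lower than in the wild type in every mutant. It averaged 11.13 in the combined, 12.45 in the hdac and 10.46 in the bmh mutant, against 13.12 in the wild type. Of the 8 measured acid phosphatase and regulator genes the combined mutant had 3 called higher and 4 lower than in the wild type, the hdac mutant 2 and 4, and the bmh mutant 1 and 3, with medians of −0.29, −0.25 and −0.34. Over all genes 75.7%, 71.4% and 32.0% passed in these comparisons, with medians of −0.13, −0.09 and −0.01. The 4 lower calls of the hdac mutant were 2 without hdac array 1 or 3, where 66.9% and 66.6% of all genes passed. The 1 higher call of the bmh mutant, PHO2 (0.26), was lost without any 1 of the combined arrays, hdac array 1, bmh array 1 or 3, or wild-type array 2 or 3. It was also lost under quantile normalization, trend and robust eBayes, a threshold of 0.01 and the fit of only the compared arrays.

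**Figure D3:**
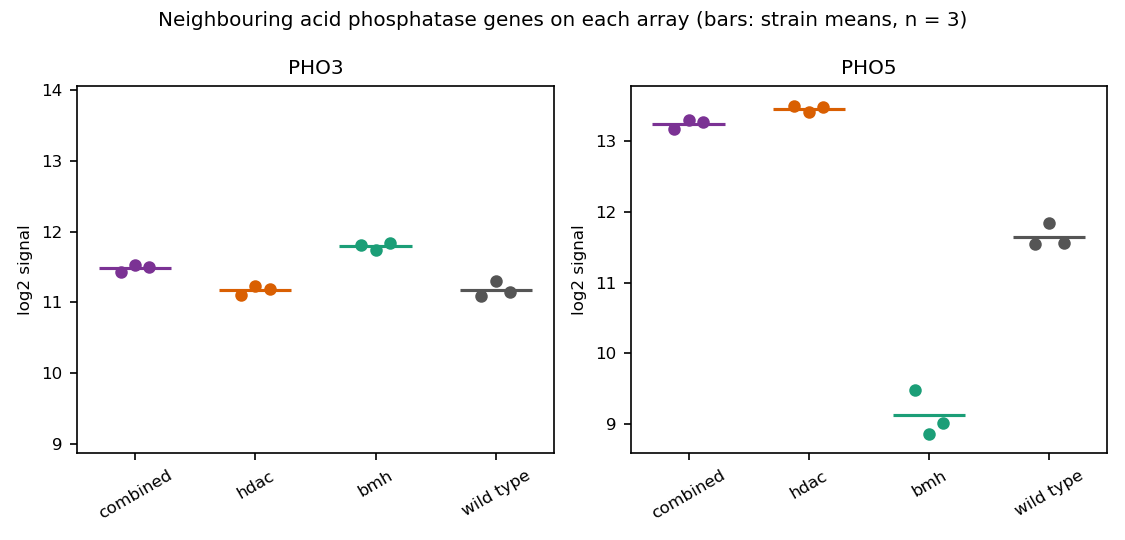
Log2 signal (vertical axis, arbitrary log2 units, both panels 5.2 units high) of the neighbouring genes PHO3 and PHO5 on every array by strain; points are arrays and bars strain means. The bmh arrays are the highest for PHO3, 11.74 to 11.84, and the lowest for PHO5, 8.86 to 9.49.

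THI2 (locus YBR240C, probe set 1770288_at), the activator of the thiamine genes, was higher in both strains without the deacetylases than in the wild type. It measured 6.86, 7.0 and 6.83 on the combined arrays, 6.97, 7.06 and 6.93 on the hdac arrays, and 6.38, 6.47 and 6.21 on the bmh arrays. The wild-type arrays gave 6.66, 6.63 and 6.30. The combined and hdac arrays overlapped each other and lay above the bmh and wild-type arrays, which also overlapped. Relative to the wild type THI2 rose by 0.37 ± 0.098 in the combined mutant (1.29-fold, adjusted p = 0.0044) and by 0.46 ± 0.098 in the hdac mutant (1.37-fold, adjusted p = 0.0012), and the bmh difference of −0.18 ± 0.098 did not pass (adjusted p = 0.20). Quantile normalization of the arrays ended the combined call, at 0.20 (adjusted p = 0.078), and moved the hdac value to 0.30 (adjusted p = 0.014). The combined mutant exceeded the bmh mutant by 0.55 ± 0.098 (adjusted p = 2.9e-04), and the bmh mutant lay 0.63 ± 0.098 below the hdac mutant (log2 difference −0.63, adjusted p = 9.8e-05). The combined and hdac mutants differed by −0.09, with a 95% interval of −0.30 to 0.13.

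THI3 (locus YDL080C, probe set 1777752_at), the decarboxylase-like regulator that responds to thiamine diphosphate, passed the test in no comparison. It measured 8.49, 8.46 and 8.36 on the combined arrays, 8.43, 8.38 and 8.39 on the hdac arrays, and 8.58, 8.51 and 8.42 on the bmh arrays. Wild-type values were 8.02, 8.34 and 8.40. The mutants overlapped one another, the bmh arrays alone lay above all wild-type arrays without overlap, and wild-type array 1 was the lowest of the 12. The differences from the wild type were 0.18 in the combined mutant (95% interval −0.01 to 0.38), 0.15 in the hdac mutant (−0.05 to 0.34) and 0.25 in the bmh mutant (0.06 to 0.44, adjusted p = 0.0502). That bmh difference passed in 5 of 9 alternative settings and without wild-type array 2 or 3, and it was 0.13 without wild-type array 1; the combined difference passed without wild-type array 3, at 0.26.

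Of the other regulators, RPI1 measured 7.12, 7.08 and 7.05 on the combined arrays, 7.45, 7.25 and 7.54 on the hdac arrays, and 6.11, 6.30 and 6.13 on the bmh arrays. In the wild type the signals were 7.30, 7.99 and 7.56. RPI1 fell by 1.44 ± 0.14 in the bmh mutant relative to the wild type (adjusted p = 1.0e-05), and by 0.54 ± 0.14 in the combined mutant (log2 difference −0.54, adjusted p = 0.004); its hdac difference of −0.20 did not pass except without wild-type array 1 (−0.36, adjusted p = 0.012) and with array weights (−0.40). PDC2, the partner of Thi2 and Thi3, fell by 0.39 ± 0.088 in the hdac mutant (log2 difference −0.39, adjusted p = 0.0015). Its differences in the combined (−0.19, adjusted p = 0.068) and bmh (0.05, adjusted p = 0.73) mutants did not pass, although the combined difference did, at −0.30, without wild-type array 1.

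The 4 strains form a cross of the bmh and the hdac mutations, which allows a test of whether the differences add on the log2 scale. The interaction is the combined difference from the wild type less the sum of the bmh and hdac differences. It passed for 4 of 8 thiamine genes, where 23.7% of all genes passed (12.3% positive and 11.3% negative), and its median was 0.13 over the 8 genes and −0.02 over all genes. For THI20 the bmh and hdac differences from the wild type summed to −0.95, whereas the combined mutant stood at 0.34, an interaction of 1.29 ± 0.10 (limma adjusted p = 2.3e-06). For THI7 the sum was 0.49 and the combined difference 1.54, an interaction of 1.05 ± 0.11 (adjusted p = 3.1e-05). THI80 stood at −0.44 against a sum of −0.08, an interaction of −0.36 ± 0.089 (adjusted p = 0.012). PHO3 stood at 0.31 against a sum of 0.61, an interaction of −0.31 ± 0.093 (adjusted p = 0.031), and this call was lost in 7 of 12 fits that each left out 1 array: without combined array 1 or 3, hdac array 2 or 3, bmh array 1 or 3, or wild-type array 3. Under array weights the PHO3 interaction was −0.18 (adjusted p = 0.068).

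THI4 showed no departure from the sum that passed: the bmh and hdac differences summed to 1.43 and the combined difference was 1.61, an interaction of 0.18 with a 95% interval of −0.14 to 0.50 (adjusted p = 0.43). For THI2 the interaction was 0.09 (−0.21 to 0.39), for THI3 −0.21 (−0.49 to 0.06) and for THI6 0.25 (0.05 to 0.45, adjusted p = 0.071); that of THI6 passed without hdac array 2 or wild-type array 3 and under array weights. The interaction also passed for all 7 a-cell and all 4 alpha-cell markers, with medians of 2.74 and −4.10, where 23.7% of all genes passed. That of the thiamine genes cannot be told apart from these differences between the strains.

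**Figure D4:**
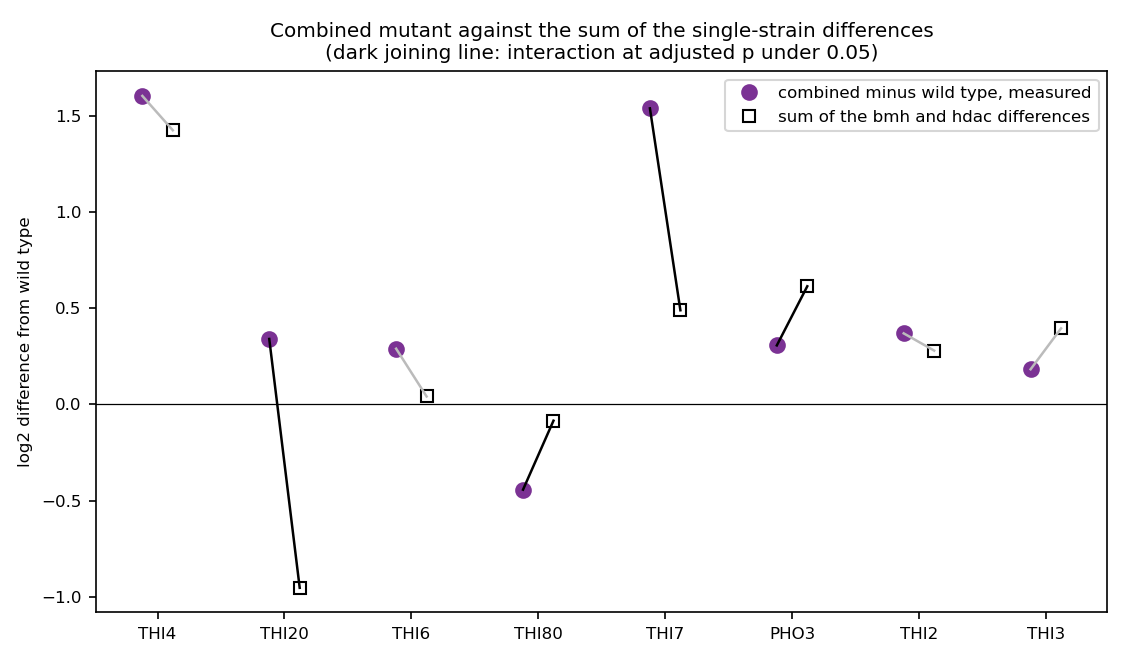
Measured log2 difference of the combined mutant from the wild type (filled circles, vertical axis) beside the sum of the bmh and hdac differences (open squares) for the 8 thiamine genes; dark joining lines mark an interaction at adjusted p under 0.05. THI20 stands at 0.34 against a sum of −0.95, and THI7 at 1.54 against 0.49.

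Between the combined and the bmh mutant 7 of 8 thiamine genes passed, 5 higher and 2 lower, where 75.0% of all genes passed (30.1% higher and 45.0% lower). Between the combined and the hdac mutant 6 of 8 passed, 5 higher and 1 lower, where 36.4% of all genes passed (17.5% higher and 18.9% lower). Between the bmh and the hdac mutant 5 of 8 passed, 3 higher and 2 lower, where 72.1% of all genes passed (41.6% higher and 30.5% lower). The medians of the 8 genes were 0.38, 0.32 and 0.10 in these 3 comparisons, against −0.12, −0.02 and 0.09 over all genes. These comparisons share arrays with those against the wild type and are not independent of them.

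Of a list of 13 further thiamine genes 10 were measured, and THI5, THI11 and THI12 were not analysed here. Over all genes the combined, hdac and bmh comparisons with the wild type had medians of −0.13, −0.09 and −0.01, and 75.7%, 71.4% and 32.0% passed. In the list the combined mutant had 3 called higher and 3 lower than in the wild type, the hdac mutant 2 and 4, and the bmh mutant 0 and 2, with medians of −0.14, −0.20 and 0.08. PET18 rose by 1.26 ± 0.090 in the hdac mutant (adjusted p = 1.2e-07) and by 0.59 ± 0.090 in the combined mutant (adjusted p = 6.8e-05), and its bmh difference of 0.19 did not pass except without bmh array 1, at 0.30. The 3 lower calls of the combined mutant were 5 without wild-type array 1 or under quantile normalization, where 80.0% and 75.8% of all genes passed. The 2 higher calls of the hdac mutant were 1 without hdac array 3 or wild-type array 1, where 66.6% and 77.1% passed. The 2 lower calls of the bmh mutant were 1 without bmh array 1, where 24.4% passed. The 0 higher calls of the bmh mutant were 2 without combined array 1 and 1 without combined array 3, bmh array 1, bmh array 2 or wild-type array 1. In those fits 24.2% to 43.2% of all genes passed.

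Enzymes that use thiamine diphosphate as cofactor moved as follows, with 10 of 11 listed genes measured. In the combined mutant 6 were called higher and 1 lower than in the wild type, in the hdac mutant 5 and 1, and in the bmh mutant 0 and 5, with medians of 0.26, 0.20 and −0.26. All genes had medians of −0.13, −0.09 and −0.01, with 75.7%, 71.4% and 32.0% called. TKL2, the minor transketolase, measured 9.07, 9.23 and 9.26 on the combined arrays, 8.93, 8.84 and 8.88 on the hdac arrays, and 5.42, 5.62 and 5.20 on the bmh arrays. The wild-type arrays gave 6.18, 5.68 and 5.58. TKL2 rose by 3.38 ± 0.14 in the combined mutant (10.4-fold, adjusted p = 7.3e-10) and by 3.07 ± 0.14 in the hdac mutant (8.4-fold, adjusted p = 2.6e-09), and its bmh difference of −0.40 did not pass (adjusted p = 0.051; it passed without bmh array 2 or wild-type array 3). The major transketolase TKL1 differed by 0.05, −0.06 and 0.08 in the combined, hdac and bmh mutants, none of which passed with default eBayes. Under trend and robust eBayes the higher calls of the bmh mutant among the 10 enzymes were 1 instead of 0, where 32.6% of all genes passed.

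ARO10, a decarboxylase of amino acid breakdown, had the largest fall among the 10 enzymes in the bmh mutant, at −2.07 ± 0.16 relative to the wild type (adjusted p = 1.7e-06). It measured 8.57, 8.46 and 8.56 on the combined arrays, 8.82, 8.53 and 8.75 on the hdac arrays, and 6.51, 6.56 and 6.42 on the bmh arrays. Wild-type values were 9.07, 8.27 and 8.36. Wild-type array 1 was the highest of the 12, and without it ARO10 was 0.21 in the combined mutant (adjusted p = 0.027), against −0.04 with it. ILV2, the acetolactate synthase of branched-chain amino acid synthesis, was lower than in the wild type in all 3 mutants, with log2 differences of −0.65 ± 0.053 in the combined, −0.88 ± 0.053 in the hdac and −0.40 ± 0.053 in the bmh mutant (adjusted p = 2.8e-07, 2.7e-08 and 1.3e-04). The major pyruvate decarboxylase PDC1, which carries fermentation, differed by −0.06, −0.02 and −0.06 in the combined, hdac and bmh mutants. None of these passed with default eBayes. PDC1 lay at 14.30 to 14.39 on the 12 arrays, near the highest value of any probe set, 14.87. Under trend and robust eBayes the lower calls of the combined mutant among the 10 enzymes were 2 instead of 1, where 76.2% of all genes passed. The alpha and beta subunits of pyruvate dehydrogenase, PDA1 and PDB1, rose by 0.30 and 0.22 in the combined mutant and fell in the bmh mutant, with log2 differences of −0.27 and −0.26. In the hdac mutant PDA1 was also called higher, with a mean of 13.38 against 13.07 in the wild type. PDB1 was not called there, at 12.50 against 12.38.

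**Figure D5:**
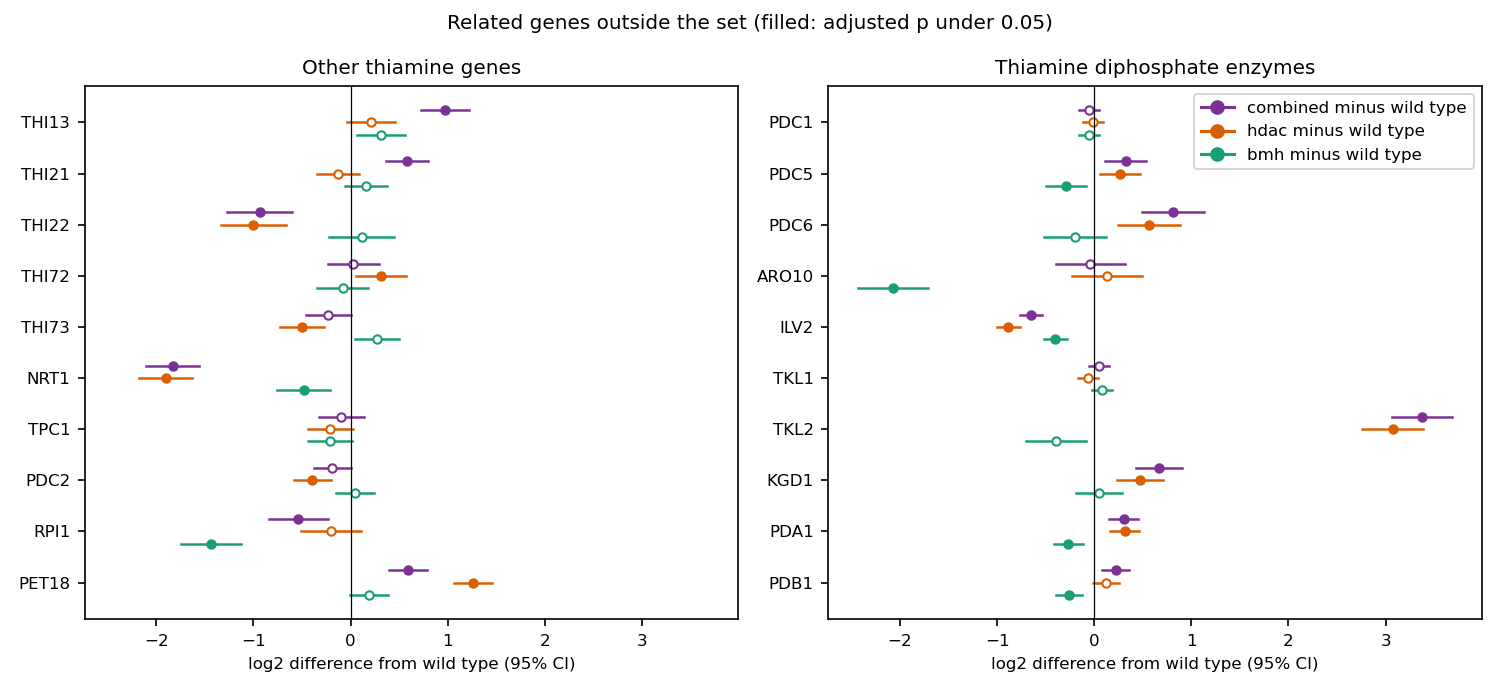
Log2 difference of each mutant from the wild type (horizontal axis, with 95% confidence intervals of the limma fit) for the measured other thiamine genes on the left and thiamine diphosphate enzymes on the right; filled points have adjusted p under 0.05. NRT1 lies at −1.83 and −1.90 in the combined and hdac mutants, and TKL2 at 3.38 and 3.07.

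The SNZ and SNO genes of vitamin B6 synthesis, the vitamin from which the Thi5 family makes the pyrimidine ring, had 4 of 6 listed genes measured; the probe sets of SNZ3 and SNO3 are of a kind that can read several related genes. Relative to the wild type the combined mutant had 4 called higher, the hdac mutant 3 and the bmh mutant 3, and 0 were called lower in any of these. Of all genes 30.4%, 29.8% and 14.8% were called higher in these comparisons. The medians of the list were 3.02, 2.61 and 1.19, against −0.13, −0.09 and −0.01 over all genes. The mean signal of SNO1 was 10.48 for the combined, 9.87 for the hdac and 7.16 for the bmh mutant, and its wild-type signals were 4.57, 4.34 and 3.78. The wild-type signals lay within or just above the range of deleted genes, 3.68 to 4.13, so no exact size is given for the rises of SNO1 over the wild type, which passed in all 3 mutants (adjusted p = 1.1e-11, 3.9e-11 and 6.2e-08 in the combined, hdac and bmh mutants), and the list's medians include them. SNZ1 rose by 4.42 ± 0.074, 3.98 ± 0.074 and 1.92 ± 0.074 in the combined, hdac and bmh mutants (adjusted p = 3.0e-13, 8.9e-13 and 3.9e-09). The SNZ3 probe set rose by 1.62 ± 0.070 in the combined mutant (adjusted p = 1.0e-09), 1.24 ± 0.070 in the hdac mutant (adjusted p = 1.6e-08) and 0.46 ± 0.070 in the bmh mutant (adjusted p = 4.2e-04). SNO3 rose by 0.44 ± 0.075 in the combined mutant (adjusted p = 2.0e-04), its values of 0.12 in the hdac and 0.02 in the bmh mutant not passing.

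The genes whose signal followed a thiamine gene most closely over the 12 arrays were found for the 2 genes of the 8 whose strain means spanned at least 1 on the log2 scale. For THI4 they were CMK2, a calmodulin-dependent kinase (Pearson r = 0.988), FMP52 (r = 0.982) and RTC2 (r = 0.981), among 2492 genes with at least 0.5 times its SD. For THI7 they were FOX2, an enzyme of peroxisomal beta-oxidation (r = 0.991), the checkpoint kinase MEC1 (r = 0.989) and the glycogen debranching enzyme GDB1 (r = 0.988), among 1409 genes. The 12 arrays fall into 4 strains of 3, so these values describe mostly the likeness of 4 strain means, and arrays of a strain share its genotype.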

How the data were processed

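RNA of 12 cultures, amplified from 250 ng with a 3' IVT kit, was read on arrays. The authors made the deposited log2 signals with RMA (affy), per the submitters' processing notes. Tool versions, genome build and the base of the logarithm are not stated there; base 2 was taken from RMA practice and a value range of 3.39 to 14.9. No further normalization was applied. Strains follow the genotype labels; source names of combined and hdac arrays carry each other's strain name. Of 5715 probe sets, 5497 had 1 gene symbol, 0 several and 218 none; 12 symbols were updated through Entrez identifiers, and of several probe sets for a gene the brightest was kept (49 dropped). No 2 arrays were identical. limma 3.58.1 in R 4.3.3 fitted a means model of the 4 strains to all 12 arrays, using lmFit and default eBayes (8 residual, 3.82 prior degrees of freedom). The 6 pairwise comparisons and the interaction were each adjusted by Benjamini-Hochberg over 5448 genes. The fit was also run on simulated data with the same spread in every strain and changes planted in few genes. In the real data the wild type had a larger spread and many genes passed, so that run does not test the fit under these conditions.

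Deviations from the strain mean correlated between same-numbered combined and bmh arrays at 0.135, 0.100 and 0.129. These 2 strains were therefore treated as paired in an alternative fit, a choice made after seeing the data. The labels give no such pairing, and these correlations do not establish it. Arrays of different number correlated as highly, at 0.192 for combined array 1 with wild-type array 3 and 0.142 for hdac array 2 with wild-type array 3. No other 2 strains had all 3 correlations of same-numbered arrays above 0.1.

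The members and lists were chosen with earlier results of these data known. Named genes were the 8 thiamine genes, the mutated genes and genes of the lists. The 3 genes most alike in pattern to a member spanning at least 1 were also named. For each list the plan was values for up to 4 called genes with the largest change, which was not followed throughout. No value is given for PDC6, KGD1 or PHO80 in the combined mutant or THI73 in the hdac mutant, although smaller changes are given. The lists were other thiamine genes, thiamine diphosphate enzymes, vitamin B6 genes, and acid phosphatases with their regulators. Values of further list genes were added after they were seen. Alternatives were quantile normalization, median centring, a filter on dim genes, trend and robust eBayes, array weights, a replicate block, a fit of only the compared arrays, all probe sets, a stricter threshold of 0.01, and the omission of each array in turn. A planned motif search in promoters was not run, and no sequences are printed.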

Additional observations from a re-analysis of the deposited data

Results flagged for a closer look

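The effect of one set of mutations differed with the presence of the other, by limma's test of the interaction (adjusted p under 0.05), for 1289 of 5448 genes, or 23.7%. Among the 8 thiamine genes 4 passed, THI7 (1.05 ± 0.11), THI20 (1.29 ± 0.10), THI80 (−0.36 ± 0.089) and PHO3 (−0.31 ± 0.093). Among the 10 other thiamine genes RPI1 (1.10 ± 0.20), THI21 (0.55 ± 0.14), NRT1 (0.55 ± 0.18) and PET18 (−0.86 ± 0.13) passed. The 3 positive calls were 5 without wild-type array 1, where 36.0% of all genes passed. The NRT1 interaction (adjusted p = 0.040) was lost without combined array 3, hdac array 2 or 3, bmh array 1 or 2, or wild-type array 2, under quantile normalization (0.45, adjusted p = 0.11), median centring (0.54, adjusted p = 0.053) and the replicate block (0.55, adjusted p = 0.061). Among the 10 thiamine diphosphate enzymes ARO10 (1.90 ± 0.23), TKL2 (0.70 ± 0.20), ILV2 (0.63 ± 0.075) and PDB1 (0.36 ± 0.088) passed. These 4 calls were 7 without wild-type array 3, where 24.2% of all genes passed. The TKL2 interaction (adjusted p = 0.024) was lost without combined array 2 or 3, hdac array 2 or 3, or bmh array 3. Of the 4 vitamin B6 genes SNO1 (−2.32 ± 0.23) and SNZ1 (−1.47 ± 0.10) had negative interactions; wild-type SNO1 lay within or just above the range of deleted genes, so the size of its interaction is not exact. Of the 8 acid phosphatase and regulator genes PHO5 (2.32 ± 0.19), PHO11 (1.34 ± 0.22, from a probe set of a kind that can read several related genes) and DIA3 (0.71 ± 0.18) had positive ones. The interaction also passed for all 7 a-cell and all 4 alpha-cell markers and 4 of 5 measured strain markers, and the interactions given here cannot be told apart from these differences between the strains.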

How the results depend on the processing

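Over 1169 recomputed differences of the 8 thiamine genes, 15 lost and 20 gained a call, and no called difference changed sign; 5 differences called in neither setting did. The number of thiamine genes called in the bmh comparison with the wild type was 4 and became 4 to 7 when 1 array was left out, the 7 coming without wild-type array 3. Over all genes 24.2% to 43.2% were called in those fits, and 30.4% without wild-type array 3. The counts over the same fits were 5 to 5 for the hdac and 7 to 8 for the combined comparison with the wild type, 7 to 7 for combined against bmh, 5 to 6 for combined against hdac, 5 to 6 for bmh against hdac and 3 to 4 for the interaction. The shares over all genes, in the same order, were 66.6% to 77.1%, 71.0% to 80.0%, 70.3% to 80.4%, 28.8% to 50.8%, 67.0% to 78.0% and 19.3% to 36.0%. At adjusted p under 0.01 the interaction count was 2 instead of 4, and the share over all genes 13.5% instead of 23.7%. Under the replicate block the counts were 4, 5 and 7 for the bmh, hdac and combined comparisons with the wild type, 7, 6 and 5 for the direct ones and 4 for the interaction, as without it; with only the combined and bmh arrays, a choice made after seeing the data, the block gave 7. Outside the 8 genes, 2 differences from the wild type in the combined mutant reversed, THI72 at −0.35 under quantile normalization and ARO10 at 0.21 without wild-type array 1 (−0.19 to 0.21 over the fits that left out 1 array); the cause was not tested. Leaving out dim genes removed THI2, so it has no value there. Counts of called genes in the related lists moved by over 1.5 times 103 times, 67 of them downwards. Without dim genes the higher and lower calls among other thiamine genes were 1 and 1 instead of 3 and 3 in the combined mutant. They were 0 and 2 instead of 2 and 4 in the hdac mutant, and the lower calls were 0 instead of 2 in the bmh mutant. That filter removes genes from the lists. Over the genes that remained 76.5%, 72.1% and 34.2% were called in the combined, hdac and bmh comparisons, instead of 75.7%, 71.4% and 32.0%. With only the compared arrays the lower calls among thiamine diphosphate enzymes in the bmh mutant were 3 instead of 5. Over all genes 20.1% were then called in that comparison, instead of 32.0%. With array weights the positive interactions among other thiamine genes were 6 instead of 3, and those over all genes 1096 instead of 671. The median SD over genes was 0.065 to 0.068 in the mutants and 0.14 in the wild type, and 3 arrays per strain limit the precision. Among the 8 genes, quantile normalization ended the call of the combined difference of THI2.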
